A study of Mus musculus with 12 samples.

Results

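Of 17186 genes tested on these arrays, 10 belong to the core of the catecholamine system, the making, storage, release and reuptake of dopamine, noradrenaline and adrenaline. They were named by their function in the pathway: the synthetic enzymes Th, Ddc, Dbh and Pnmt, the vesicular monoamine transporters Slc18a1 and Slc18a2, the plasma membrane transporters Slc6a3 and Slc6a2, and the granule proteins Chga and Chgb. All 10 passed the filter on low signal (a log2 value of at least 6 on at least 3 arrays), each with 1 probe set that the annotation gives to no other gene. The same 10 passed when the ASP arrays were left out of the filter. Their signals are described in the hypothalamus of male C57BL/6J mice of 21 weeks, on 12 Affymetrix arrays of the Mouse Gene ST type, 3 in each of 4 groups. ASP mice had the sweetener aspartame in their drinking water from before birth to adulthood, at 46 mg/kg. ASP+CGP mice had aspartame in the same way and were also exposed, until postnatal day 28, to CGP 39551, which competes with glutamate at NMDA receptors. CGP 39551 was given to their dams, at 5 mg/kg of the body weight of the dams. CGP mice had that developmental exposure to CGP 39551 without aspartame, and CON mice had neither agent. The hypothalamic RNA of each group was pooled before labelling, so the 3 arrays of a group repeat 1 pool. The p-values thus speak of the spread among arrays, not among mice, and treatment and pool cannot be told apart.

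Tyrosine hydroxylase (Th) carries out the rate-limiting step, from tyrosine to L-DOPA, which aromatic L-amino acid decarboxylase (Ddc) turns into dopamine. Dopamine beta-hydroxylase (Dbh) makes noradrenaline from dopamine inside vesicles, and phenylethanolamine N-methyltransferase (Pnmt) makes adrenaline from noradrenaline. The hypothalamus has dopamine neurons of its own, among them those that restrain prolactin release, and it receives noradrenaline and adrenaline fibres whose cell bodies lie in the brainstem. Outside the brain the chromaffin cells of the adrenal medulla hold the whole pathway, load their granules mainly through Slc18a1 and pack them with chromogranins, whereas central monoamine neurons rely on Slc18a2.

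Promoter sequences of 7 of the 10 genes were found by symbol in a RefSeq table of build GRCm38.p6. Those of Th, Dbh, Chga and Chgb are shown because these genes were higher in the ASP pool, and that of Slc18a2 because it was not although it holds the same motif as Th. Each runs from 250 bases before to 10 bases after the start site, 5′ to 3′ on the strand of the gene, and capitals mark the cAMP response element (CRE, TGACGTCA) or its core (TGACG, or CGTCA where it lies on the other strand). They lie at chr7:142899986-142900245, minus strand (Th), chr2:27165257-27165516, plus strand (Dbh), chr12:102554691-102554950, plus strand (Chga), chr2:132781392-132781651, plus strand (Chgb) and chr19:59260628-59260887, plus strand (Slc18a2).
Th: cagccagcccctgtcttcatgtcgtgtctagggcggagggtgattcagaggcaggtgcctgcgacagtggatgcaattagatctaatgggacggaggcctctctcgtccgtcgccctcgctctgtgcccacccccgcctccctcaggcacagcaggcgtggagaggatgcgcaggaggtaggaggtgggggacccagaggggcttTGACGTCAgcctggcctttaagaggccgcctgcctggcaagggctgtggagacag
Dbh: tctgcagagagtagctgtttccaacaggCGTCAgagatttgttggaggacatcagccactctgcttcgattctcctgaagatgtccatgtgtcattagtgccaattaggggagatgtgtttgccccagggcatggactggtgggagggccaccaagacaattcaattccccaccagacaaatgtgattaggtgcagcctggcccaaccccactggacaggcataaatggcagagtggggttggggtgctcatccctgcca
Chga: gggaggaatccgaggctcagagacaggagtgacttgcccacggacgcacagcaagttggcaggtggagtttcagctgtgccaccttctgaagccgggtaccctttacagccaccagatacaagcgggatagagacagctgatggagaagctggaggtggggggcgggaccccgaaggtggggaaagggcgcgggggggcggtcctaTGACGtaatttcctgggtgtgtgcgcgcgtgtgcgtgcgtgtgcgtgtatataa
Chgb: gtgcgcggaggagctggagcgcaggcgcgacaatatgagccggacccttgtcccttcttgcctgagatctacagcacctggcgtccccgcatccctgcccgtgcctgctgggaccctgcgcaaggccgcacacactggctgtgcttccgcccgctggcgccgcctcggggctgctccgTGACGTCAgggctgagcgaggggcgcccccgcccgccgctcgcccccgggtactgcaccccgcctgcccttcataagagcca
Slc18a2: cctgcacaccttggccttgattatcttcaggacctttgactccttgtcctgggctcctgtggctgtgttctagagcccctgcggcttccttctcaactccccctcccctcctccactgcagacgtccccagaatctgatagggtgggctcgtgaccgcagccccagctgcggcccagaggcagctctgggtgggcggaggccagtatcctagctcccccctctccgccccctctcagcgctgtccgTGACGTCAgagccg
The whole CRE, the element through which cAMP acts on many neuronal and endocrine genes, was found at bases -45 to -38 of Th, -72 to -65 of Chgb and -4 to 4 of Slc18a2, counted from the start site with no base 0. It occurs in 1.67% of the 32851 promoters of the table, searched over the same length on both strands. A core without the whole element was found at -222 to -218 of Dbh, on the opposite strand, and at -44 to -40 of Chga. The core is part of the whole CRE and occurs in 18.8% of promoters. The promoters of Pnmt, Slc18a1 and Slc6a2 were not used here.

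**Figure D1:**
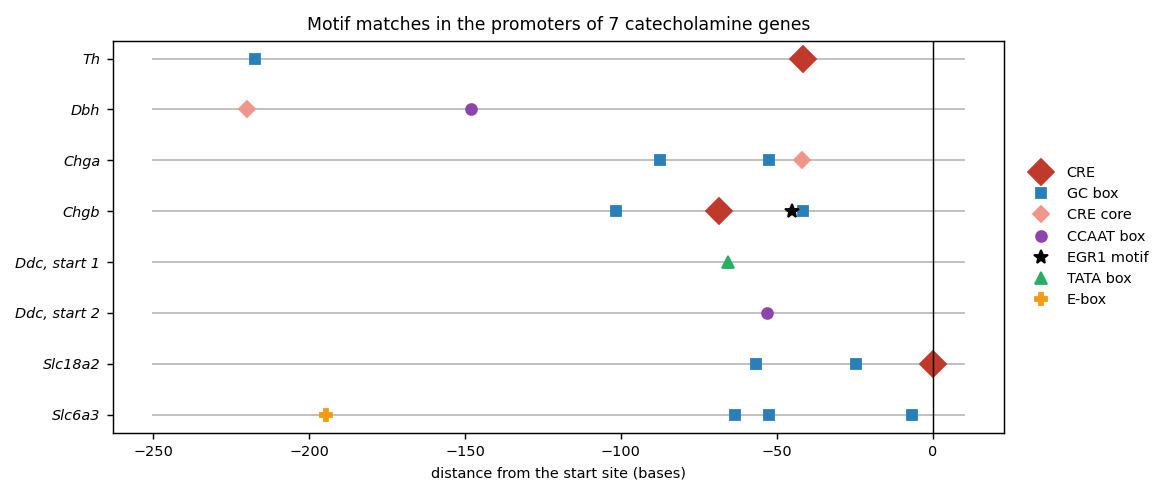
Motif matches on either strand in 8 promoters of 7 catecholamine genes (Ddc has 2 start sites in the table). The horizontal axis gives the distance from the start site in bases, and each row is a promoter. The symbols stand for the CRE, its core without the rest, the GC box (GGGCGG), the TATA box (TATAAA), the CCAAT box (CCAAT), the E-box (CACGTG) and an EGR1 motif (GCGGGGGCG), and whole CREs appear in Th, Chgb and Slc18a2.

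Of the other letters searched, the GC box (33.4% of all promoters) was found in Th, Chga, Chgb, Slc18a2 and Slc6a3, and the EGR1 motif GCGGGGGCG (2.7%) only in Chgb, where it overlaps a GC box. The second EGR1 form searched, GCGTGGGCG (0.554%), was found in none of the 8 promoters. TATAAA (12.7%) was found in 1 start of Ddc and CCAAT (34.6%) in the other, both on the opposite strand. CCAAT was also found in Dbh, and CACGTG (6.34%) in Slc6a3. Members that were higher in the ASP pool and members that were not shared motifs, as Th and Slc18a2 do with the CRE.

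Arrays of the same pool correlated at 0.9952 to 0.9986 over the tested genes and arrays of different pools at 0.9869 to 0.9977. The third arrays of ASP+CGP and CON lay farthest from their pool means, with SDs of deviation of 0.0996 in ASP+CGP and 0.0903 in CON on the log2 scale, against 0.049 to 0.0701 on the other arrays. Hypothalamic markers were present in all pools: of 16 measured genes none had a pool mean under 6, and their summed linear signal was 27300 to 27900 in ASP, 27400 to 28100 in ASP+CGP, 27900 to 28400 in CGP and 31100 to 34000 in CON. Of this list 1 gene, the vasopressin gene Avp, was called lower in ASP vs CON, where it fell by 0.50 on the log2 scale, and in ASP+CGP vs CON, where it fell by 0.55. By adjusted p alone (limma) 7 of the 16 were lower in ASP vs CON and 0 higher, where 4.08% of all genes passed. There 10 of the 16 had an unadjusted p under 0.05, as had 2907 of all 17186 genes, and the median was -0.16. The other treated pools were alike. In CGP vs CON 5 were lower (median -0.18), where 0.628% of all genes passed, and in ASP+CGP vs CON 6 were lower (median -0.15), where 1.75% passed. None of the 16 passed in ASP vs CGP or in ASP vs ASP+CGP.

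In ASP vs CON the 2 enzymes at the end of the pathway, Dbh and Pnmt, were more than 6-fold higher, Th and the transporter Slc18a1 were higher by smaller factors, and Ddc, Slc18a2 and both reuptake transporters did not pass the test. Differences were tested with limma over all genes, and genes with both an adjusted p (Benjamini-Hochberg) under 0.05 and a fold change over 1.4 were called. By this rule 4 of the 10 were called, all higher, where 1.05% of all genes were called. The 10 were chosen with earlier results of these data known, so their shares, here and below, are no test of the set. By adjusted p alone 6 of 10 passed, Chga and Chgb being the others, where 4.08% of all genes passed. The median log2 difference was 0.36 over the 10 genes and -0.01 over all genes. In a bulk sample, more cells of a type and more RNA per cell cannot be told apart.

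**Figure D2:**
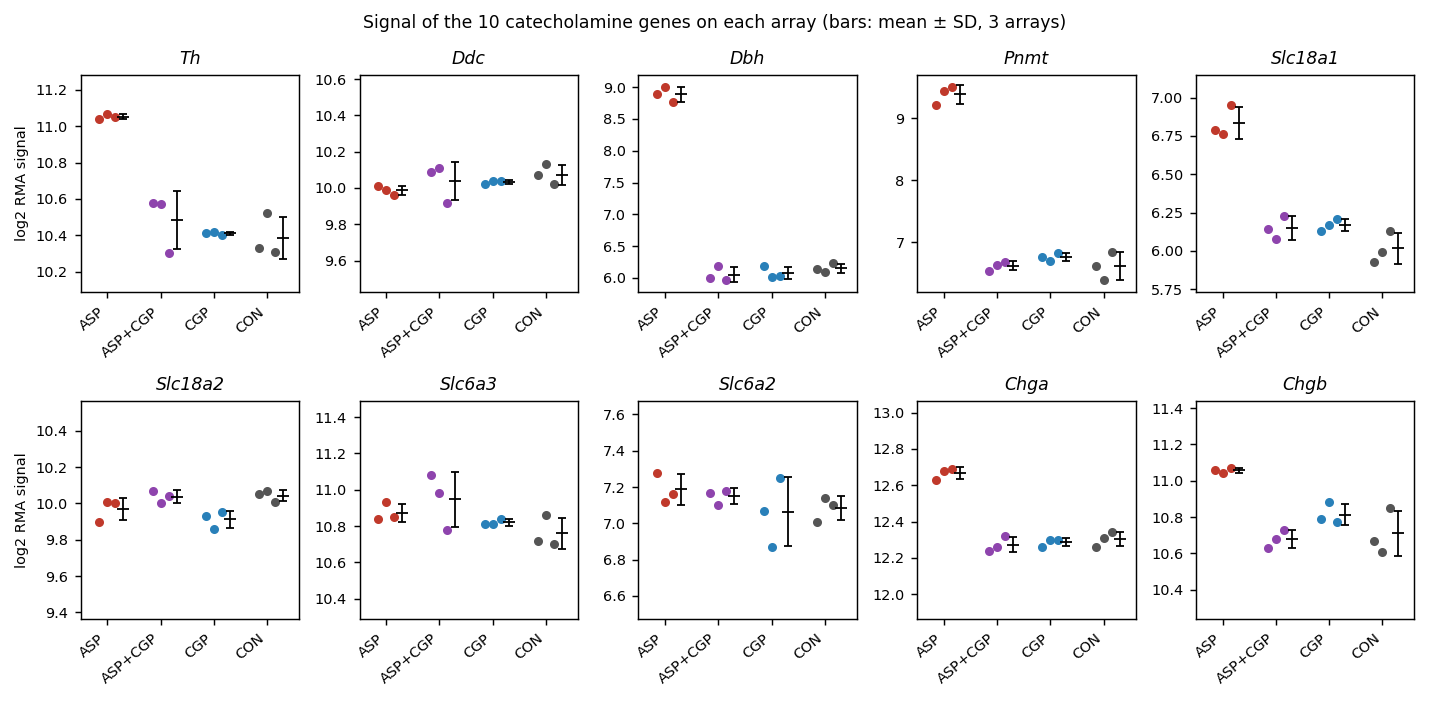
Log2 RMA signal of the 10 genes, with a panel for each gene, a point for each array and the mean ± SD of 3 arrays beside the points (vertical scales differ between panels). The ASP arrays stand above all others for Th, Dbh, Pnmt, Slc18a1, Chga and Chgb, and overlap those of at least 1 other pool for Ddc, Slc18a2, Slc6a3 and Slc6a2. How many of all genes had such a gap was not counted.

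Th gave log2 signals of 11.04, 11.07 and 11.05 on the ASP arrays, against 10.58, 10.57 and 10.30 in ASP+CGP, 10.41, 10.42 and 10.40 in CGP, and 10.33, 10.52 and 10.31 in CON. No ASP array overlapped another pool, while the other 3 pools overlapped one another. Such gaps were not counted over all genes. The ASP arrays of Ddc and Slc18a2 did not overlap the CON arrays either, at adjusted p of 0.42 and 0.43 (limma). The difference ASP vs CON was 0.66 ± 0.07 (SE), or 1.58-fold (adjusted p = 3.2e-05, limma), rank 121 among the rises of 17186 genes. Next in order came ASP+CGP, CGP and CON with means of 10.48, 10.41 and 10.39, and the differences between these 3 were 0.02 to 0.09 with no adjusted p under 0.57.

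Ddc, which acts on the product of Th, had 10.01, 9.99 and 9.96 in ASP, 10.09, 10.11 and 9.92 in ASP+CGP, 10.02, 10.04 and 10.04 in CGP, and 10.07, 10.13 and 10.02 in CON. The ASP arrays lay just under the CGP and CON arrays and within the range of the ASP+CGP arrays. The difference ASP vs CON was -0.09 with a 95% interval of -0.20 to 0.02 (adjusted p = 0.42, limma), an interval that leaves out a rise of the size of Th.

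Dbh showed 8.89, 9.0 and 8.77 on the ASP arrays. It showed 5.99, 6.19 and 5.97 in ASP+CGP, 6.18, 6.02 and 6.03 in CGP, and 6.14, 6.09 and 6.23 in CON. Outside the ASP pool the gene thus sat at the level of 6 used as the filter, with 2 of 3 ASP+CGP arrays below it, and the 3 pools overlapped. In ASP vs CON it was 2.73 ± 0.07 higher (SE), 6.63-fold, with an adjusted p of 5.2e-12 (limma), and had rank 17 among the rises.

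Pnmt followed the same course, with 9.21, 9.45 and 9.51 in ASP, 6.54, 6.64 and 6.68 in ASP+CGP, 6.76, 6.70 and 6.82 in CGP, and 6.62, 6.39 and 6.84 in CON. The lowest ASP array was above the highest array of any other pool, and the CON arrays scattered most among the other 3 pools (SD 0.221). The difference of 2.77 ± 0.10 (SE), 6.84-fold (adjusted p = 1.1e-10, limma), had rank 15.

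Other tissues' genes stood high in the same pool as Dbh and Pnmt. Of 12 measured adrenal cortex markers 11 were called higher in ASP vs CON, where 1.05% of all genes were called. Their median log2 difference was 2.94 against -0.01 for all genes. Hsd3b1, Hsd3b6 and Mc2r passed the signal filter only through the ASP arrays and so had to differ, and of the other 9 markers 8 were called higher (median 2.26). Cyp11b1 and Cyp21a1, enzymes of steroid synthesis, had the largest differences of the list, 6.04 and 5.86. The summed linear signal of the list was 20700 to 21000 in ASP, 1590 to 1600 in ASP+CGP, 1630 to 1660 in CGP and 1590 to 1640 in CON. Those 3 genes had means under 6 in ASP+CGP, CGP and CON, and no gene of the list did in ASP. Markers of the adrenal medulla and sympathetic neurons other than the 10 genes gave 2 calls of 11, Chrnb4 and Npy, both higher, beside the same 1.05%. By adjusted p alone, which 4.08% of all genes passed, 6 of the 11 were higher (Phox2a, Hand2, Gata3 and Chrna3 besides). Lower was 1, Prph, at -0.27 (adjusted p = 0.005, limma). Insm1, Ret, Chrna7 and Penk did not pass, at 0.08, 0.07, 0 and -0.12. Not all of these stood highest in ASP: Chrna3 and Chrnb4 had means of 8.97 and 8.87 in ASP and of 9.13 and 9.14 in CGP. Prph was lower in ASP+CGP vs CON as well, at -0.3 (adjusted p = 0.0059, limma). In ASP vs CON the median of this list was 0.31. Its sums were 12500 to 12800 in ASP, 10800 to 11300 in ASP+CGP, 10400 to 10500 in CGP and 11000 to 11800 in CON. No gene of this list had a mean under 6 in any pool. The part of these tissues in the signals of Dbh, Pnmt, Th, Slc18a1, Chga and Chgb was not tested.

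**Figure D3:**
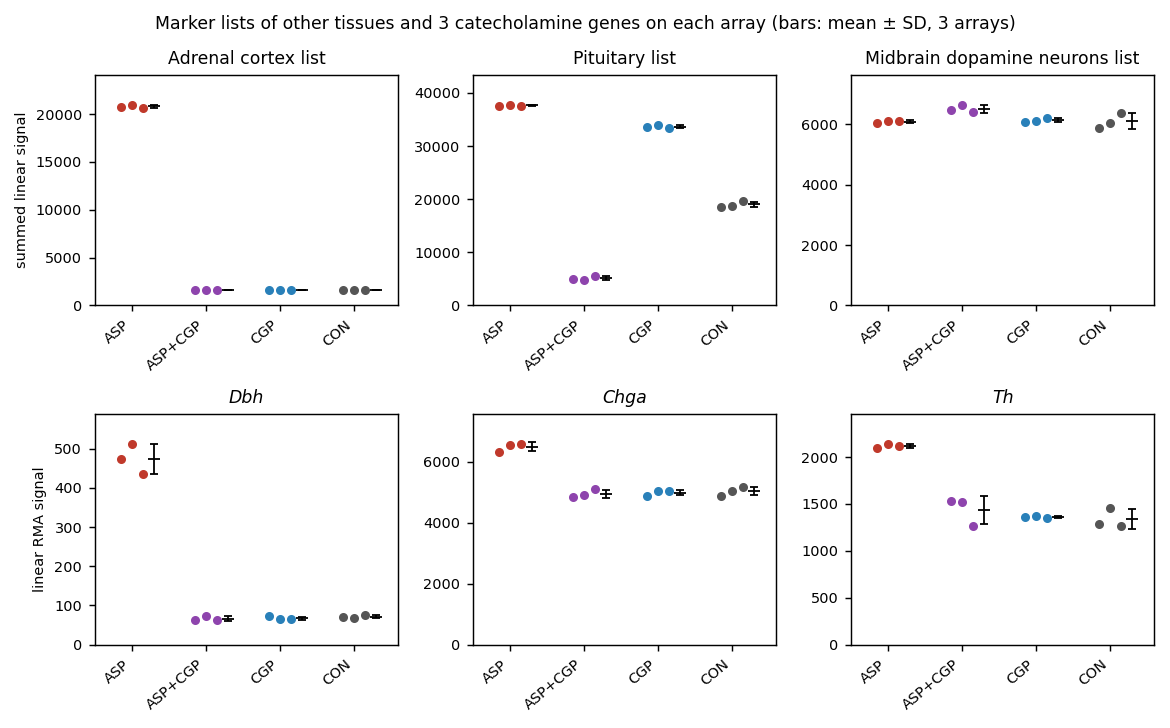
Summed linear signal of 3 marker lists (above) and linear RMA signal of Dbh, Chga and Th (below) on each array, in points with the mean ± SD of 3 arrays beside them and all axes starting at 0. The adrenal cortex list reaches 20700 to 21000 in ASP and at most 1660 elsewhere, the pituitary list is high in both ASP and CGP, and the midbrain dopamine list stays between 5860 and 6650.

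Further marker lists stood high in ASP with these genes. Of the exocrine pancreas genes, Cpb1 and Zg16 passed the signal filter only through the ASP arrays. The other 5 were all called higher in ASP vs CON (median 1.10), Ctrb1 and Cpa1 among them, where 1.05% of all genes were called. The whole list of 7 had sums of 3640 to 3720 in ASP, 854 to 913 in ASP+CGP, 897 to 907 in CGP and 826 to 884 in CON, and with Cpb1 and Zg16 under 6 outside ASP. Of the adipose genes, Adipoq, Fabp4 and Lep passed only through the ASP arrays. The other 6 were all called higher (median 2.63), Car3 and Retn among them, beside the same 1.05%. The whole list of 9 had sums of 6810 to 7140 in ASP, 973 to 1020 in ASP+CGP, 989 to 1050 in CGP and 963 to 972 in CON, and with Adipoq, Fabp4 and Lep under 6 outside ASP. None of 3 islet genes was called in ASP vs CON (limma, 0 at an unadjusted p under 0.05, median 0.04), and their sums lay between 445 and 511 in all pools, with no mean under 6. What share of the catecholamine signals moved with these lists was not tested.

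The vesicular transporter Slc18a1 (VMAT1) had 6.79, 6.76 and 6.95 in ASP, 6.14, 6.08 and 6.23 in ASP+CGP, 6.13, 6.17 and 6.21 in CGP, and 5.93, 5.99 and 6.13 in CON. The ASP arrays were above all others, and 2 CON arrays lay under 6. It was 0.82 ± 0.06 higher in ASP vs CON (SE), 1.76-fold (adjusted p = 1.1e-06, limma), rank 96. Its paralogue Slc18a2 (VMAT2), the form of brain monoamine neurons, had 9.90, 10.01 and 10 in ASP, 10.07, 10 and 10.04 in ASP+CGP, 9.93, 9.86 and 9.95 in CGP, and 10.05, 10.07 and 10.01 in CON. All 12 arrays lay between 9.86 and 10.07, and the difference ASP vs CON was -0.07 (95% interval -0.17 to 0.02, adjusted p = 0.43, limma). The ASP rise was thus measured in 1 vesicular transporter, and the interval of the other reaches no rise above 0.02.

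The dopamine transporter Slc6a3 and the noradrenaline transporter Slc6a2 return the amines to the terminal. Slc6a3 ranged over 10.84 to 10.93 in ASP, 10.78 to 11.08 in ASP+CGP, 10.81 to 10.84 in CGP and 10.70 to 10.86 in CON. Slc6a2 ranged over 7.12 to 7.28 in ASP, 7.10 to 7.18 in ASP+CGP, 6.87 to 7.25 in CGP and 7.01 to 7.14 in CON. The ASP and CON arrays overlapped for both genes. The differences ASP vs CON were 0.12 (95% interval -0.02 to 0.26, adjusted p = 0.39) for Slc6a3 and 0.10 (-0.07 to 0.27, adjusted p = 0.56) for Slc6a2. Beside these, none of 9 markers of midbrain dopamine neurons was called in ASP vs CON (limma, median 0.05). At an unadjusted p under 0.05 there were 2 of them, beside 2907 of all 17186 genes. Their sums were 6040 to 6120 in ASP, 6400 to 6650 in ASP+CGP, 6090 to 6210 in CGP and 5860 to 6380 in CON, with no gene under 6.

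Chromogranin A (Chga), a core protein of dense granules in chromaffin cells, pituitary cells and many neurons, had 12.63, 12.68 and 12.69 in ASP, 12.24, 12.26 and 12.32 in ASP+CGP, 12.26, 12.30 and 12.30 in CGP, and 12.26, 12.31 and 12.34 in CON. Every ASP array was above the rest, which overlapped. It was 0.37 ± 0.04 higher in ASP vs CON (SE, adjusted p = 5.7e-05, limma), 1.29-fold, and so under the fold limit. Chgb, its companion in the same granules, had 11.06, 11.04 and 11.07 in ASP, 10.63, 10.68 and 10.73 in ASP+CGP, 10.79, 10.88 and 10.77 in CGP, and 10.67, 10.61 and 10.85 in CON. Here too the ASP arrays were highest without overlap, and the difference ASP vs CON was 0.35 ± 0.06 (SE), 1.27-fold (adjusted p = 0.0025, limma).

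The pituitary also holds chromogranins, and its markers are set beside Chga and Chgb here. The summed linear signal of 12 pituitary genes was 37600 to 37800 in ASP, 4860 to 5470 in ASP+CGP, 33400 to 34000 in CGP and 18600 to 19600 in CON, with Gnrhr under 6 in ASP+CGP and CON. In ASP vs CON 7 of 12 were called higher (median 0.78), in CGP vs CON 7 were called higher (median 0.61), and in ASP+CGP vs CON 6 were called lower (median -0.55). The shares of all genes called there were 1.05%, 0.111% and 0.18%. In ASP vs ASP+CGP 9 were called higher (median 1.30), beside 1.27% of all genes. In ASP vs CGP, where no pituitary gene was called (2 of 12, Pomc and Lhb, passed by adjusted p alone, 6 had an unadjusted p under 0.05, and the median was 0.12), Chga was 0.38 ± 0.04 and Chgb 0.25 ± 0.06 higher (SE, adjusted p = 4e-05 and 0.035, limma). In ASP+CGP vs CON, where growth hormone (Gh), prolactin (Prl) and the glycoprotein hormone subunit gene Cga were lower, Chga and Chgb both differed by -0.03 (adjusted p = 0.81 and 0.85). The pool means of Chgb were 11.06 in ASP, 10.68 in ASP+CGP, 10.81 in CGP and 10.71 in CON. Those of Chga were 12.67 in ASP, 12.27 in ASP+CGP, 12.28 in CGP and 12.30 in CON. Among the pools other than ASP no difference of either gene passed by adjusted p (limma), so their order there was not resolved. The part of pituitary RNA in the chromogranin signals was not tested.

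The comparisons of ASP with the 2 pools that had CGP 39551 use the same ASP arrays again. In ASP vs ASP+CGP the called genes were Th, Dbh, Pnmt and Slc18a1, 4 of 10 beside 1.27% of all genes, and 6 of 10 passed by adjusted p alone beside 6.92%. The differences were 0.57 for Th, 2.83 for Dbh, 2.77 for Pnmt, 0.68 for Slc18a1, 0.39 for Chga and 0.38 for Chgb, with adjusted p of at most 0.00097 (limma). In ASP vs CGP 4 of 10 were called beside 0.943%, and 6 of 10 passed by adjusted p alone beside 3.42%. There Th was 0.64, Dbh 2.81, Pnmt 2.63 and Slc18a1 0.66 higher. The call of Th in ASP vs ASP+CGP rested on the third ASP+CGP array, which read 10.30: without it the difference was 0.48 (adjusted p = 0.00014), just under the limit of 0.485 that 1.4-fold makes on the log2 scale.

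**Figure D4:**
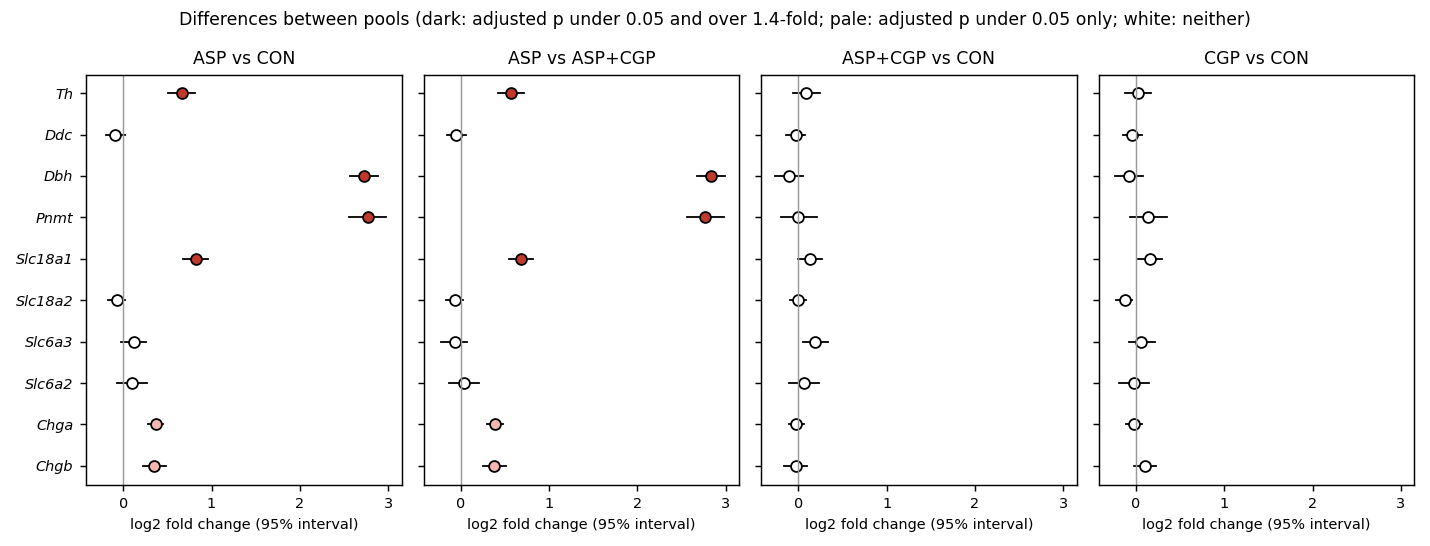
Log2 fold changes of the 10 genes with 95% intervals in ASP vs CON, ASP vs ASP+CGP, ASP+CGP vs CON and CGP vs CON. Dark points mark genes past both limits, pale points those past adjusted p under 0.05 only and white points neither, and the last 2 panels hold white points only, between -0.13 and 0.19.

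Whether the aspartame difference was the same with and without CGP 39551 was asked with the interaction, that is, ASP+CGP vs CGP minus ASP vs CON. It was called for 4 of 10 genes, all negative, beside 1.5% of all genes, and passed by adjusted p alone for 6 of 10 beside 4.01%. Dbh was -0.03 with CGP 39551 and 2.73 without, an interaction of -2.75 ± 0.10 (SE, adjusted p = 3.4e-10, limma). For Pnmt the differences were -0.14 with and 2.77 without (interaction -2.91 ± 0.14, adjusted p = 4.3e-09), for Slc18a1 -0.02 and 0.82 (-0.84 ± 0.09, adjusted p = 4.5e-05), and for Th 0.07 and 0.66 (-0.59 ± 0.10, adjusted p = 0.0029). Chga and Chgb had interactions of -0.37 and -0.48 (adjusted p = 0.0015 and 0.0035), and Ddc, Slc18a2, Slc6a3 and Slc6a2 ranged over -0.02 to 0.20 with no adjusted p under 0.11. Without the third arrays of ASP+CGP and CON the interaction of Th was -0.46 (adjusted p = 0.0025), under the fold limit, and that of Chgb -0.58, past it. The adrenal cortex, pancreas and adipose lists, high in ASP alone, moved with these values too, and their part in the interaction was not tested.

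Among the other 3 pools none of the 10 genes was called, with limma, by either rule. In CGP vs CON 0 of 10 were called beside 0.111% of all genes and 0.628% by adjusted p alone, and the median difference was 0.00. At an unadjusted p under 0.05 there were 2, Slc18a1 at 0.16 and Slc18a2 at -0.13 (adjusted p = 0.35 and 0.26), beside 1997 of all 17186 genes. In ASP+CGP vs CON 0 of 10 were called beside 0.18% and 1.75% by adjusted p alone. Slc6a3 at 0.19 (adjusted p = 0.18) was the 1 gene of the 10 at an unadjusted p under 0.05, beside 2640 of all 17186 genes. In ASP+CGP vs CGP 0 of 10 were called beside 0.163% and 0.978% by adjusted p alone. Slc18a2 at 0.13 and Chgb at -0.13 (adjusted p = 0.22 and 0.32) had an unadjusted p under 0.05, beside 2444 of all 17186 genes. For Dbh the 95% interval was -0.24 to 0.08 in CGP vs CON and -0.26 to 0.05 in ASP+CGP vs CON, and for Pnmt it was -0.07 to 0.35 and -0.20 to 0.21. All 4 intervals of signal lie within 1.4-fold of no change, for these pools. Both genes were weak there. Dbh had means of 6.05 to 6.15, near the limit of the signal filter, and Pnmt had means of 6.62 to 6.76. Background signal makes the folds of weak genes too small, so these intervals cannot bound a change in RNA.

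The rest of the pathway was measured through lists of genes around the 10. Tetrahydrobiopterin is the cofactor of Th. Of genes for its synthesis, regeneration and regulation 6 were measured, and none was called in any contrast. Gch1, the entry enzyme of the synthesis, was 0.27 higher in ASP vs CON (adjusted p = 0.0088, limma), 1.21-fold, and was named after its values were seen. Its means were 6.73 in ASP, 6.41 in ASP+CGP, 6.26 in CGP and 6.46 in CON. Of 6 genes of amine breakdown none was called (median 0.04 in ASP vs CON). Aldh2, an aldehyde dehydrogenase named after its values were seen, differed by 0.37 in ASP vs CON with an adjusted p of 0.10, and by 0.44 in ASP vs ASP+CGP with an adjusted p of 0.035. Of 11 genes of granule cargo and processing none was called, and their differences in ASP vs CON lay between -0.14 and 0.10 (median -0.06), each smaller in size than those of Chga and Chgb. The 6 exocytosis genes (median 0.00), 5 dopamine receptors (median 0.07), 2 adrenergic receptors (median 0.09) and 2 genes of other monoamine uptake (median 0.08) gave no call in any contrast. At an unadjusted p under 0.05 (limma) in ASP vs CON there was 1 gene each of the cofactor, breakdown, granule, exocytosis, dopamine receptor and adrenergic receptor lists, and 0 of the uptake list. Of all 17186 genes, 2907 had such a p.

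Of transcription factors listed for catecholamine cells, 10 were measured and none was called in ASP vs CON. Of these 10, 5 passed by adjusted p alone in ASP vs CON, all higher, beside the 4.08% of all genes given above, and the median was 0.23. Phox2a, which takes part in specifying noradrenergic neurons and is known to activate Dbh, was 0.46 ± 0.07 higher (SE, adjusted p = 0.0008, limma), with means of 7.15 in ASP, 6.76 in ASP+CGP, 6.82 in CGP and 6.69 in CON. Gata3, Hand2 and Gata2, factors of sympathoadrenal development, were 0.43, 0.31 and 0.26 higher (adjusted p = 0.0023, 0.00064 and 0.0036), and Egr1, an immediate early factor, was 0.26 higher (adjusted p = 0.012). These 5 were named after their values were seen. The rest, Nr4a2, Insm1, Lmx1b, Pitx3 and Isl1, differed by 0.19, 0.08, 0.04, 0.02 and -0.08 and did not pass. In ASP vs ASP+CGP 4 of the 10 passed by adjusted p alone, beside 6.92% of all genes, with Gata3 at 0.15 (adjusted p = 0.25) no longer among them. In ASP vs CGP neither Gata3 at 0.25 nor Egr1 at 0.17 passed (adjusted p = 0.081 and 0.13, limma). Phox2a was the 1 gene of the list called in the interaction, at -0.53 ± 0.10 (SE, adjusted p = 0.0056). None passed by adjusted p alone in ASP+CGP vs CON or in CGP vs CON, with medians of 0.05 in both.

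The genes whose pattern lay closest to each called member were sought over all 12 arrays, by the root mean square difference of log2 values after setting each gene to 0 at its CON mean. Dbh lay closest to Cd36 (0.125), a fatty acid transporter that passed the signal filter only through the ASP arrays (CON mean 5.53), followed by Cpa1 (0.153), a pancreatic carboxypeptidase, and Cidec (0.165), a lipid droplet protein. Pnmt lay closest to Cpa1 (0.125), Retn (0.127), the adipose hormone resistin, and Cidec (0.167). The closest to Th were Il10rb (0.061), Abhd2 (0.085) and Tinagl1 (0.091), and to Slc18a1 Cxcr4 (0.086), Ecrg4 (0.087) and Prss2 (0.101). Cpa1 is in the exocrine pancreas list and Retn and Cidec are in the adipose list. The distance depends on the size of the ASP difference, and in ASP vs CON Cpa1, Retn and Cidec differed by 2.62, 2.78 and 2.67. Adrenal cortex genes with larger differences, such as Cyp11b1 with 6.04, lie far by this measure whatever their course. The distances therefore do not rank the tissues. The 12 arrays come from 4 pools, so these distances carry no test.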

How the data were processed

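The authors deposited log2 signals, 1 per probe set and array, made with Partek from 12 arrays by RMA (background correction, quantile normalization over arrays and summary of probes; tool names per the labels, versions not given). Quantile normalization removes changes that move most genes alike, and background signal makes the folds of weak genes too small. Groups and array numbers came from the sample labels. Of 29149 probe sets, 19019 had exactly 1 gene symbol in the platform annotation. Of these, 18810 reached 6 on at least 3 arrays, and the probe set with the highest mean was kept per gene, which left 17186 genes. The number of columns not used was 0.

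A mean per pool was fitted to all 12 arrays (lmFit and eBayes of limma 3.58.1, R 4.3.3, with 8 residual and 5.43 prior degrees of freedom), after the analysis of variance with contrasts of the study's methods. Adjustment was by Benjamini-Hochberg within a contrast over all genes. A gene was called at an adjusted p under 0.05 and over 1.4-fold. Values after ± are SEs of the fit or SDs over 3 arrays, as marked. With 3 arrays against 3, the smallest two-sided p of an exact permutation test is 0.1, so none was made. The number of arrays limits the precision.

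All 10 genes are named in every contrast, with up to 4 called genes of each pathway list, up to 3 of each marker list and the 3 genes most like each called member. Members and lists were chosen with earlier results of these data known. Linear signals, the antilog of log2, were summed per array over each marker list. The fit was checked on simulated data. Alternatives were other signal filters, probe set rules, normalizations, tests and fold limits, the array number as a block, and leaving out each array in turn. Arrays of ASP+CGP and CON with the same number deviated together, by the data and not by a label, and a block over these arrays alone was added after seeing the data, as was a count of marker genes that passed the filter outside the ASP pool. Protein sequences were not used here.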

Additional observations from a re-analysis of the deposited data

Results flagged for a closer look

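For 6 of the 10 genes the aspartame difference itself differed with and without CGP 39551, by the test of the interaction (limma, adjusted p under 0.05, which 4.01% of all genes passed). On the log2 scale, ASP+CGP vs CGP minus ASP vs CON came to -2.91 for Pnmt and -2.75 for Dbh. It came to -0.84 for Slc18a1 and -0.59 for Th. The chromogranins had -0.37 (Chga) and -0.48 (Chgb), under the fold limit. No explanation was tested for these values.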

How the results depend on the processing

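Over 27 alternative settings, 1813 values of the 10 genes were computed. Of these, 1785 kept their side of the threshold, 11 dropped under it and 17 came over it. Direction was compared only for values past the threshold in the main fit or in the setting, and 0 of those reversed. Some small uncalled differences changed sign, as that of Slc6a2 in CGP vs CON, which ran over -0.11 to 0.08. With a limit of 2-fold, the called genes were 2 of 10 in ASP vs CON, in ASP vs ASP+CGP, in ASP vs CGP and in the interaction, in place of 4, since Th and Slc18a1 lie under that limit. Leaving out 1 array at a time gave 4 to 4 called genes in ASP vs CON and ASP vs CGP, 3 to 4 in ASP vs ASP+CGP, 4 to 5 in the interaction and 0 to 0 in the other comparisons. Th in ASP vs ASP+CGP dropped to 0.48 without the third ASP+CGP array. Chgb passed the fold limit of the interaction in 11 settings. With a minimum signal of 7, Slc18a1 was not tested. Between limits of 2-fold and 1.2-fold the called genes of the whole array ran over 72 to 425 in ASP vs CON, 74 to 599 in ASP vs ASP+CGP, 63 to 380 in ASP vs CGP, 86 to 644 in the interaction, 5 to 84 in CGP vs CON, 5 to 158 in ASP+CGP vs CON and 8 to 124 in ASP+CGP vs CGP.

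The labels number the arrays of each pool alike. Arrays of the same number deviated together (r over 0.1) in 6 of 18 pairs, with r of -0.106 to 0.541, so the numbers were not taken as a pairing of all pools. The 3 pairs of ASP+CGP and CON were all over 0.1, at 0.17, 0.256 and 0.541. A replicate block over those 6 arrays alone, chosen after seeing the data, called 0 of the 10 genes in ASP+CGP vs CON (2 at an unadjusted p under 0.05). With the replicate number of all arrays as a block 4 genes were called in ASP vs CON, in ASP vs ASP+CGP, in ASP vs CGP and in the interaction, and 0 in the other comparisons. Weak signals limit Dbh, Pnmt and Slc18a1 outside the ASP pool, where they lie near 6.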

Other observations

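Serotonin and histamine neurons share Ddc or Slc18a2 with catecholamine neurons, and 4 of their own genes were measured. Slc6a4, the serotonin transporter, was called higher in ASP vs CON by 0.50 ± 0.06 on the log2 scale (SE, adjusted p = 0.00012, limma), with means of 7.40 in ASP, 6.81 in ASP+CGP, 6.78 in CGP and 6.90 in CON. Tph2, the enzyme of serotonin synthesis in neurons, had a difference of -0.47 ± 0.09 (SE, adjusted p = 0.0046), under the fold limit, with means of 6.19 in ASP, 6.35 in ASP+CGP, 6.24 in CGP and 6.66 in CON, and was called in the interaction at 0.58 (adjusted p = 0.014). Hdc, which makes histamine, had a difference of -0.34 ± 0.05 in ASP vs CON (SE, adjusted p = 0.00056), with means of 8.92 in ASP, 8.92 in ASP+CGP, 8.97 in CGP and 9.26 in CON, and was named after its values were seen.

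Among markers shared by sympathoadrenal cells and brain, Npy, a peptide stored with noradrenaline and made in the arcuate nucleus, averaged 12.01 in ASP, 11.04 in ASP+CGP, 11.17 in CGP and 11.47 in CON, and was 0.54 ± 0.09 higher in ASP vs CON (SE, adjusted p = 0.0015, limma). Chrnb4, a nicotinic receptor subunit, had another order of pools, with means of 8.87 in ASP, 8.80 in ASP+CGP, 9.14 in CGP and 8.34 in CON.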
